A study of Mus musculus with 16 samples.

Results

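The libraries described here compared mouse embryonic stem cells of a Mettl14 conditional knockout (CKO) with Control cells after 30 min of labelling with 5-ethynyl uridine (EU). They are 4 of the 16 libraries of the series, 2 labelled CKO and 2 labelled Control, and were taken by genotype and EU time from the sample labels. All cells were of strain C57BL/6 and were kept in serum medium with LIF, CHIR99021 and PD0325901. EU was given at 0.5 mM, so that cells were collected after the stated labelling time, 48 h after seeding. The other libraries, used only for comparison, had the same genotypes and 10, 20 or 60 min of EU. The labels name neither the alleles nor the enzyme or agent behind the knockout. They leave unsaid whether replicate libraries stem from separate cultures, so a p-value here speaks of the spread among these libraries only, and that spread may be technical.

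METTL14 forms a heterodimer with METTL3, the enzyme that writes N6-methyladenosine, a mark on messenger and other nuclear RNA that is known for its part in RNA turnover. In mouse embryonic stem cells the mark is known for its role in the exit from pluripotency. EU enters RNA as it is transcribed and carries an alkyne, to which biotin can be clicked, so that RNA made during the labelling can be pulled out of total RNA. Whatever unlabelled RNA the beads retain is sequenced with it.

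The values are read counts for 54446 mouse gene identifiers of the Ensembl database and 92 ERCC spike-in species. The files pair the identifiers with no gene symbol, and the gene table used here matched 0 of them. The level of Mettl14, cell type markers, gene families and sequences were therefore not analysed here, and the embryonic stem cell label and the genotype label were not checked. Identifiers are described by abundance, by their number and version, and at most 4 are named. Counts of overlapping, antisense and near-identical genes are uncertain, since no source used here gives the strand setting or the counting rule.

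Both CKO libraries stood apart. They held 5188643 and 5109162 mouse counts, against 12883425 and 18085759 in the Control 30 min libraries. In spite of the lower depth, 30583 and 31826 identifiers had at least 1 count, against 25454 and 26272 in Control. The 2 CKO libraries also differed from each other in mouse counts per ERCC count, at 81.6 and 47.4, while the Control libraries gave 79.2 and 84.5. Among 43 ERCC species with at least 10 counts in every library outside the CKO 30 min pair, the log2 difference between replicates had an SD of 1.07 in the CKO 30 min pair and of 0.30 to 0.54 in the other 7 groups. Since the spike-in was added after capture, fewer cells and less labelled RNA per cell cannot be told apart.

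The first question was which identifiers carried the counts that the CKO 30 min libraries held and Control libraries did not. Of the 54446 mouse identifiers, 19033 had no count in any of the 8 Control libraries. These Control-silent identifiers took 1.67% and 1.63% of the mouse counts of the CKO 30 min libraries (mean 1.65% ± 0.032, SD, n = 2). In the 6 CKO libraries of the other EU times they took 0.0045% to 0.0139%, so the 2 ranges lie far apart. The identifiers were chosen for their 0 counts in Control, and their Control values are no result.

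The background was broad and thin. The first CKO 30 min library detected 4106 of the Control-silent identifiers (21.6%) and the second 4460 (23.4%), against 260 to 817 in the other CKO libraries. The 10 Control-silent identifiers with most counts together held 2.05% and 1.96% of the counts on the class. The highest single level was 51.7 CPM (mouse counts scaled to a total of 1000000 per library) in the first library and 39.1 CPM in the second. Few levels of that size were shared, since 572 identifiers reached 10 CPM in at least 1 of the 2 libraries and 44 did so in both.

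Which silent identifiers were hit differed between the replicates. In all, 6492 were detected in at least 1 CKO 30 min library and 2074 in both, which is 50.5% of those in the first and 46.5% of those in the second. Of the 6492, 4854 had no count in any other CKO library, and identifiers without such a count held 68.6% and 68.9% of the counts on the class. When detected, an identifier had a median of 14 counts in the first library and 13 in the second. Only 8.01% and 9.24% of the detected identifiers rested on a single count, and 61.4% and 60.7% had 10 or more. In the other CKO libraries the median was 1 to 3 counts, and 36.2% to 63.2% of the detected identifiers rested on a single count. The share with 10 or more counts was 18.5% and 19.8% in the CKO 10 min pair and 0.16% to 1.35% at 20 and 60 min. Several reads on one identifier were thus most common in the CKO 30 min pair. The reads were deposited as counts without molecular identifiers, and whether such reads were copies of one fragment was not tested.

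Ensembl numbers are given out as gene models are added, and the version suffix rises when a model is revised, so number and version separate long-known, revised models from later ones. Most of the Control-silent class had high numbers, with 7769 (40.8%) from 80000 to below 100000 and 7734 (40.6%) at 100000 or above. Those at 100000 or above carried 43.7% and 43.2% of the counts on the class, and those from 80000 to below 100000 carried 28.6% and 27.5%. Identifiers never revised from version 1 made up 15064 of the class (79.1%) and carried 65.3% and 63.6% of its counts.

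Relative to their number, identifiers below 60000 were detected most often. Of the 1224 Control-silent identifiers numbered below 60000, 45.9% were detected in the first CKO 30 min library and 50.9% in the second, with a mean of 11.7 and 12.05 counts per identifier. From 60000 to below 80000 the detected shares were 21.1% and 22.1% of 2306, from 80000 to below 100000 they were 16.4% and 17.6%, and at 100000 or above 23.0% and 25.3%. The other CKO libraries showed 2.12% to 10.0% below 60000 and 1.13% to 4.64% over the 3 higher ranges. Revised models were detected in 32.9% and 36.1% of cases and version 1 models in 18.6% and 20.1%. Within the range at 100000 or above the order of the versions was not kept, with version 1 models at 23.1% and 25.6% and revised models at 22.2% and 19.4%. Both replicates gave the same order of the 4 number ranges, although they shared only about 1 detected identifier in 2. The length of the models, which could bear on it, was not analysed here.

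**Figure D1:**
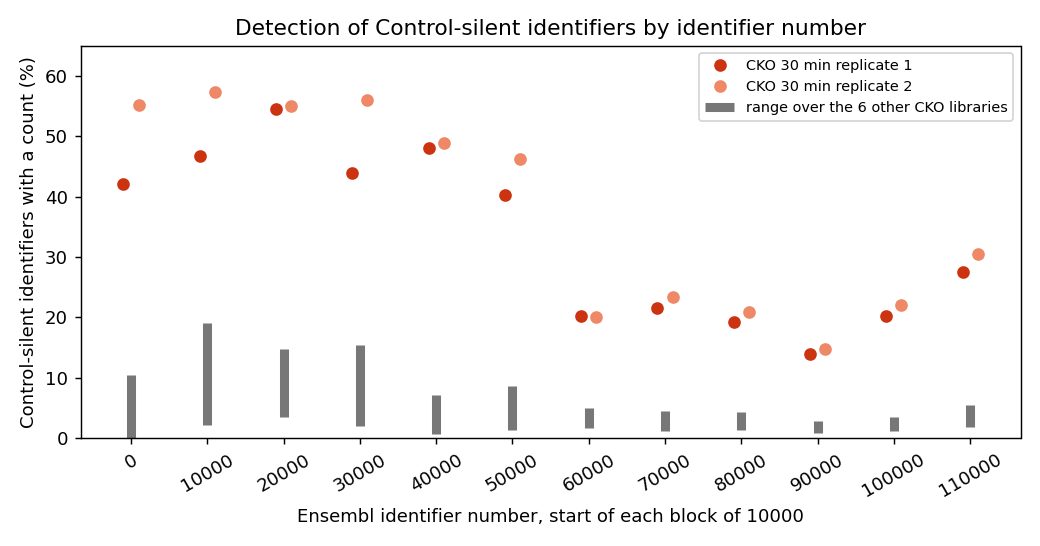
Percent of Control-silent identifiers with at least 1 count (y axis) against the Ensembl number in blocks of 10000 (x axis), for each CKO 30 min library (points), with the range over the 6 other CKO libraries (grey bars). Both CKO 30 min points lie above the grey bar in every block, at 40.2% to 57.4% in the 6 blocks below 60000 and at 13.9% to 30.6% in the 6 blocks above.

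The excess was not limited to silent identifiers. To set Control and CKO on equal terms, identifiers were put into 6 classes by their mean CPM in the 6 Control libraries of the other EU times. The 21357 identifiers at 0 in those libraries took 0.0304% and 0.0293% of the Control 30 min counts and 2.30% and 2.18% of the CKO 30 min counts. The 9579 identifiers under 0.1 CPM took 0.0636% and 0.0645% in Control and 2.69% and 2.58% in CKO. Between 0.1 and 1 CPM the shares were 0.325% and 0.320% against 3.25% and 3.20%, and between 1 and 10 CPM 2.40% and 2.42% against 6.02% and 5.92%. These 4 classes were all higher in both CKO libraries, with replicates close to each other.

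The class from 10 to 100 CPM took nearly equal shares, 28.1% and 28.2% in Control and 29.1% and 28.7% in CKO. Identifiers at 100 CPM or above made up the difference, with 69.1% and 69.0% in Control and 56.6% and 57.4% in CKO. With 2 libraries against 2, an exact permutation test of such a share cannot give a p below 0.333.

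**Figure D2:**
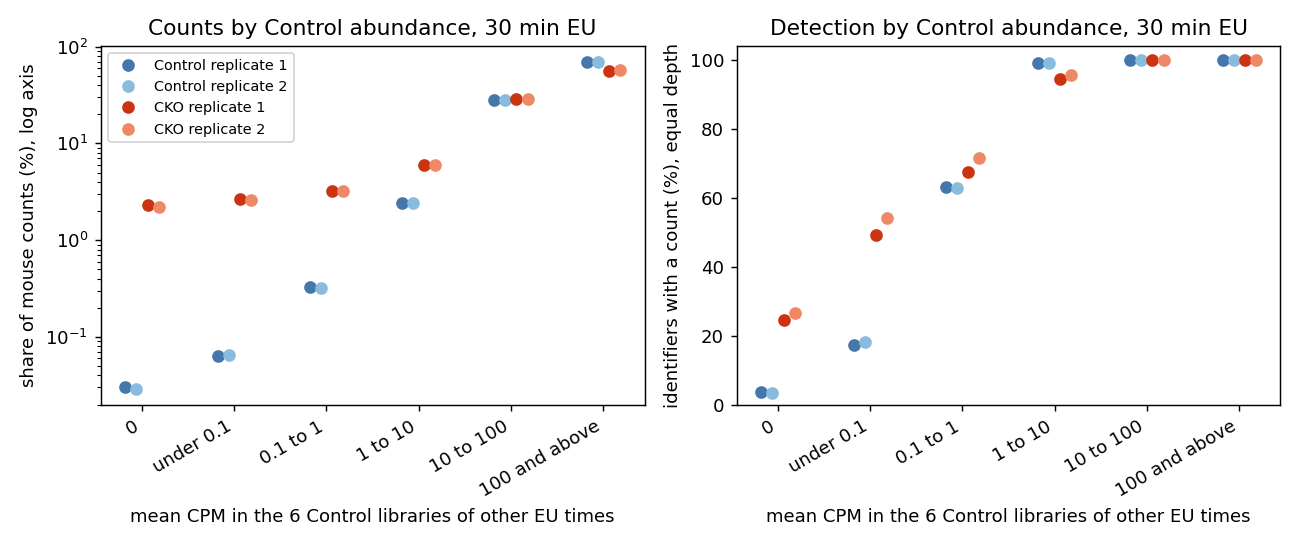
Left, share of mouse counts (percent, log axis), and right, percent of identifiers with a count after thinning each library to 5109162 mouse counts, against the mean CPM in the 6 Control libraries of other EU times, for the 4 libraries with 30 min of EU. The CKO points lie above Control in the 4 classes below 10 CPM on the left and in the 3 classes below 1 CPM on the right, and below Control at 100 CPM and above on the left.

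The CKO 30 min replicates differed more than the Control 30 min replicates in every abundance class. After thinning to equal depth, the log2 difference between the CKO 30 min replicates had an SD of 1.12 in the class at 0 CPM, 1.45 in the next 2 classes, 1.29 from 1 to 10 CPM, 0.63 from 10 to 100 CPM and 0.25 at 100 CPM or above. The Control 30 min replicates gave 0.13, 0.26, 0.49, 0.55, 0.25 and 0.10. In the lowest classes many identifiers were at 0 in both replicates, which lowers the SD there. In the 3 lowest classes an identifier could pass the filter on low counts through the CKO libraries alone, so calls are not given class by class. Their higher calls appear below only as a part of a total. In the class from 10 to 100 CPM, 7107 of 7108 identifiers were tested, and 1637 were higher and 153 lower in CKO, relative to the highly expressed identifiers.

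Over all 22412 identifiers tested with edgeR's quasi-likelihood test, 10595 differed between CKO and Control at a Benjamini-Hochberg adjusted p under 0.05 (47.3%). With TMM scaling over all of them, 7103 were higher and 3492 lower in CKO, with a median log2 fold change of 0.44. When the scaling was set on the highly expressed identifiers instead, 9925 were higher (44.3%) and 616 lower (2.75%), and the median was 1.07. Of these 9925, 6222 (62.7%) lay in the 3 classes under 1 CPM, where passing the filter can rest on the CKO libraries alone, and the totals are given only as the background for the counts that follow. Among the 15157 tested identifiers at 1 CPM or above, 24.4% were higher and 3.998% lower. From 1 to 10 CPM, 5864 of 6323 identifiers passed the filter, so passing could rest on the CKO libraries for some of these as well. The direction of a call at 30 min rests on which identifiers are taken as the level reference. The next paragraphs take the highly expressed ones, whose replicate spread was smallest.

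A set of 2135 identifiers had 100 CPM or more in both Control 30 min libraries, and 1917 of them are numbered below 60000. The set took 68.9% and 68.8% of the mouse counts in the Control 30 min libraries, 58.7% and 59.1% in the CKO 30 min libraries and 67.9% to 69.5% in the other 12. All 2135 were tested. An identifier just inside the limit had 100.1 and 102 CPM in Control and 84.8 and 77.3 CPM in CKO, and one just outside had 99.97 and 102 CPM in Control and 96.9 and 107 CPM in CKO.

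Relative to the median of this set, 868 of the 2135 identifiers were called (40.7%, against 47% of all identifiers tested). Of these, 449 were higher in CKO (21.0%, against 44.3% of all identifiers tested and 24.4% of those at 1 CPM or above) and 419 were lower (19.6%, against 2.75% and 3.998%), and under the other scalings the first count fell to between 8 and 100. Most differences were small. The median log2 fold change was 0.47 among the higher and −0.44 among the lower, with a median SE of 0.09. A difference of 2-fold or more was found for 37 of the higher and 9 of the lower identifiers, and one of 4-fold or more for 8 and 0. The scaled values of the 2 groups did not overlap for 756 identifiers that were higher and 804 that were lower, which is 35.4% and 37.7% of the set, where the shares over all identifiers tested were 65.1% and 10.2%. The latter shares include 7255 identifiers under 1 CPM, where passing the filter can rest on the CKO libraries alone.

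The calls in both directions depended on the scaling. With TMM over all identifiers the set's median shifted to −0.63, 52 of the 449 remained higher and 123 became lower. With DESeq2's size factors in edgeR the median was −0.59, with 53 remaining and 83 lower, and with library totals it was −0.41, with 100 and 15. These 3 scalings move every identifier downwards, so that the 419 lower calls held under them follows from the shift, and the number called lower rose to 1731, 1641 and 1303. With the ERCC totals, on which the 2 CKO libraries disagreed, 8 of the higher and 187 of the lower remained. A group of 52 identifiers was higher under all 4 scalings without ERCC. They are the higher calls with TMM over all identifiers, the largest downward shift among these scalings. That they also held under the smaller shifts adds no separate support.

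The 2 CKO/Control ratios, each from its own pair of libraries, moved in step across the highly expressed identifiers. In CPM, scaled to library totals only, both ratios had a median of −0.41 on the log2 scale, and their SDs were 0.47 and 0.48. Their Pearson correlation across the 2135 identifiers was 0.85, as a description, since genes of the same libraries are not independent replicates. Relative to the scaling on the set, 1675 identifiers (78.5%) had both ratios on the same side of 0. They include all 449 higher and all 419 lower ones, which was largely fixed by the calls, made on the same 4 libraries. At the other EU times the same correlation was 0.83 (10 min), 0.88 (20 min) and 0.79 (60 min). The correlation at 30 min lay within that range although the CKO pair had fewer counts. The share of identifiers with both ratios on the same side of their medians was lowest at 30 min, at 78.3%. It was 80.0%, 80.2% and 83.0% at 10, 20 and 60 min. Replicate SDs of the log2 CPM difference in the set were 0.25 for CKO 30 min and 0.08 for Control 30 min.

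**Figure D3:**
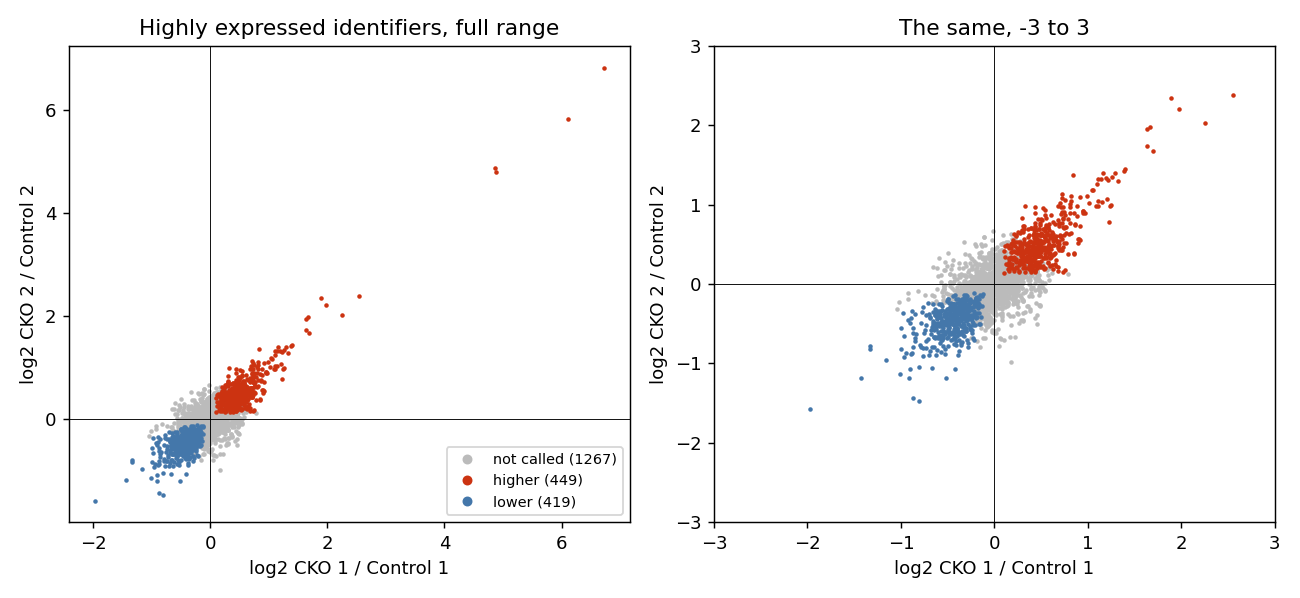
Log2 ratio of CKO replicate 2 to Control replicate 2 (y axis) against CKO replicate 1 to Control replicate 1 (x axis) for 2135 highly expressed identifiers, scaled on the set, in full (left) and from −3 to 3 (right). Coloured points are the 449 higher and 419 lower calls at an adjusted p under 0.05 (edgeR), grey points the 1267 others, and 4 points lie above 4 on both axes.

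Agreement rose with the level in Control. Among 1187 identifiers with a Control mean of 100 to 200 CPM the correlation of the ratios was 0.78, among 704 between 200 and 500 CPM it was 0.91, and among 244 at 500 CPM or more 0.96. Every class held some of the 4 identifiers more than 8-fold higher in CKO. Such points can raise a correlation, the more so in a small class. The correlation of the whole set was 0.85 with them and 0.79 without, and the classes were not computed without them. The SD between CKO replicates fell over the same classes from 0.29 to 0.20 and 0.13. Calls were made for 229 higher and 151 lower identifiers in the first class, 152 and 180 in the second and 68 and 88 in the third, which is 19.3% and 12.7%, 21.6% and 25.6%, and 27.9% and 36.1%. The median log2 fold change was 0.03, −0.04 and −0.04, so the level of the classes hardly differed while their precision did.

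Few highly expressed identifiers had the high numbers or the version 1 suffix that carried most of the counts on Control-silent identifiers. Of 48 numbered 80000 or above, 12 were higher (25%) and 20 lower (41.7%), beside 21.0% and 19.6% of the whole set. Of 25 still at version 1, 10 were higher (40%) and 8 lower (32%), while among the 2110 revised ones the shares were 20.8% and 19.5%. In the remaining ranges, 55 (32.4%) were higher and 42 (24.7%) lower of 170 numbered from 60000 to below 80000, and 382 (19.9%) and 357 (18.6%) of 1917 below 60000. No test of these classes against one another was made.

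The largest increase in the set was that of ENSMUSG00000029179.14. It had 125 and 121 CPM in the Control 30 min libraries and 10118 and 10480 CPM in the CKO 30 min libraries, while the other 12 libraries lay between 34.5 and 275 CPM. The 2 CKO 30 min libraries are thus far above all others and agree closely. The log2 fold change was 6.79 (SE 0.04, edgeR adjusted p = 4.0e-10). At the other EU times it was lower in CKO, by a log2 fold change of −1.88 at 10 min, −0.51 at 20 min and −0.39 at 60 min, each past the threshold (the last with an edgeR adjusted p of 0.0443).

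The second was ENSMUSG00000075014.1, with 455 and 449 CPM in Control 30 min and 23728 and 19357 CPM in CKO 30 min. The other 12 libraries ranged from 11.9 to 603 CPM, the highest being the 10 min CKO pair with 603 and 539 CPM. Its log2 fold change at 30 min was 5.98 (SE 0.10, edgeR adjusted p = 1.0e-07), but the adjusted p was 0.0610 without Control replicate 1 and 0.0503 without Control replicate 2. It was also higher in CKO at 10 min, with a log2 fold change of 2.78, and at 20 min, with 2.35. At 60 min the 2 CKO libraries disagreed, with 11.9 and 122 CPM.

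Both belonged to a small group of extreme identifiers. Without regard to the Control level, 14 identifiers had 100 CPM or more in both CKO 30 min libraries and a mean CPM over 8-fold that of Control 30 min. They were picked for this difference, and no test is given. Together they held 6.20% and 5.79% of the CKO 30 min counts and 0.031% to 0.171% of the counts in each of the other 14 libraries. The 4 that were highly expressed in Control held 5.40% and 5.07%. For all 14 the lower CKO 30 min library was above every other library of the series.

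Within the 14, 3 identifiers including ENSMUSG00000029179.14 shared a pattern, recognised after the values had been seen. They were all highly expressed, summed to 3.03% and 3.13% of the CKO 30 min counts and to 0.103% and 0.109% in Control 30 min. At 10 min of EU their summed share was higher in Control (0.115% and 0.106%) than in CKO (0.0340% and 0.0316%). At 20 min it was 0.0375% and 0.0427% in Control and 0.0332% and 0.0316% in CKO, and at 60 min 0.0248% and 0.0252% in Control and 0.0244% and 0.0234% in CKO. Counts per identifier do not show where along a gene the reads lie, and whether the reads behind these increases came from transcripts of the cells was not tested.

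Another 7 identifiers, including ENSMUSG00000075014.1, were grouped after their values had been seen. They stood at ranks 3 to 9 of the 14 by fold increase at 30 min, from 61.0-fold to 47.6-fold. Their summed share was 3.01% and 2.51% in CKO 30 min, 0.0565% and 0.0562% in Control 30 min and 0.0766% and 0.0696% in CKO 10 min. The most abundant of the other 6 stood at 10.1% and 11.5% of the level of ENSMUSG00000075014.1 in CKO 30 min, 9.61% and 9.08% in Control 30 min and 9.87% and 10.5% in CKO 10 min. Over the 4 libraries with 30 min of EU, the ratio of each of the 6 to ENSMUSG00000075014.1 varied by 1.20-fold to 1.53-fold between its lowest and highest value. Since the 7 were grouped by neighbouring fold increases in these same libraries, a small variation there was largely fixed by the grouping. Over all 16 libraries, in many of which these identifiers were at a few CPM or less, the ratios varied more. The most abundant of the 6 ranged from 4.73% to 14.3%, both in the Control 20 min pair, and the least abundant from 0% to 1.25%, both in the Control 10 min pair. Whether these identifiers share sequence, so that reads could be split among them, was not analysed here. At 20 min the group's share was 0.0176% and 0.0164% in CKO and 0.0030% and 0.0039% in Control.

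**Figure D4:**
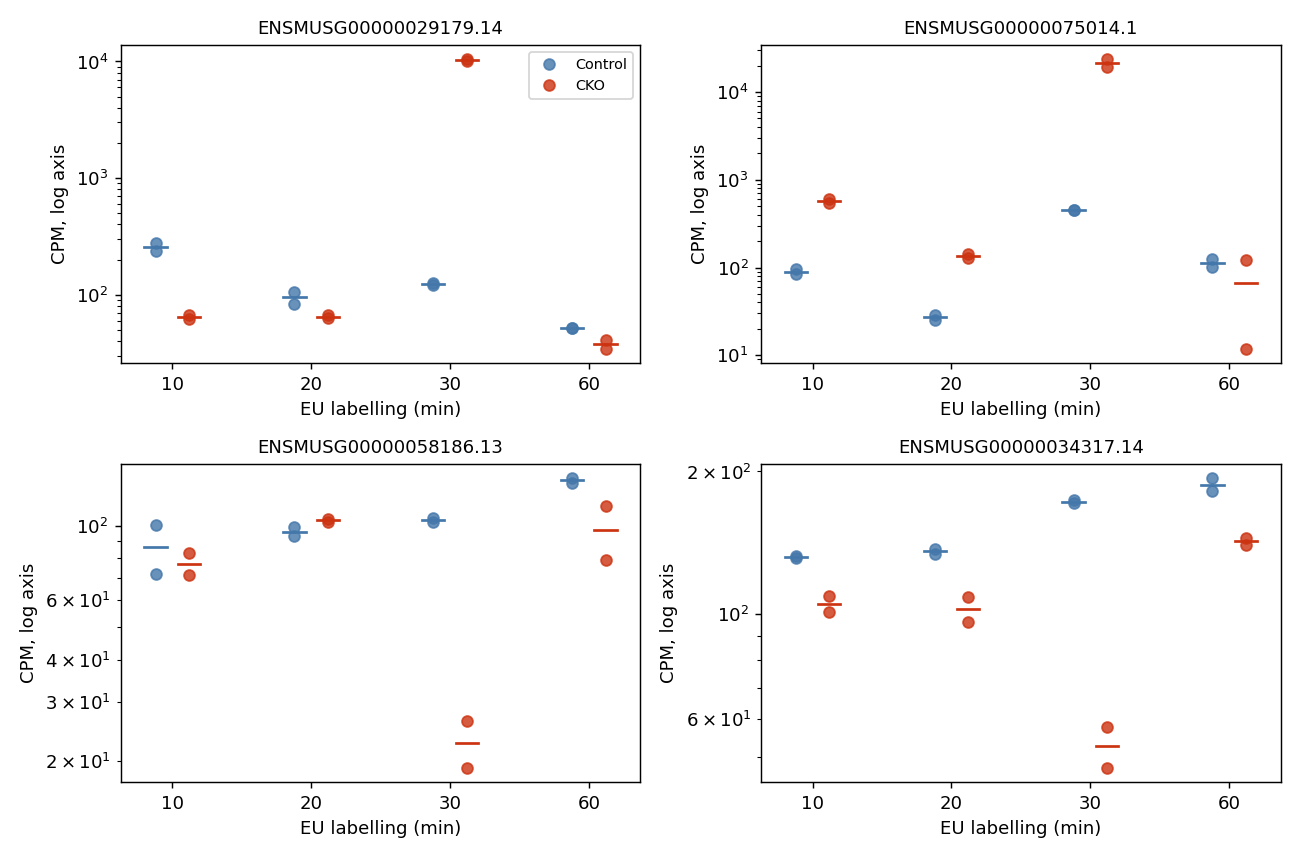
CPM (log axis) of 4 highly expressed identifiers in all 16 libraries against EU time in minutes, with 1 point per library and a short line at the mean of 2 replicates, blue for Control and red for CKO. The top panels show the increases of ENSMUSG00000029179.14 and ENSMUSG00000075014.1, with both CKO 30 min points above 10000 CPM, and the bottom panels the decreases of ENSMUSG00000058186.13 and ENSMUSG00000034317.14, with both CKO 30 min points below 60 CPM.

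Decreases were smaller. ENSMUSG00000058186.13 had 103 and 105.5 CPM in Control 30 min and 19.1 and 26.2 CPM in CKO 30 min, and the other 12 libraries lay between 71.5 and 138 CPM. Its log2 fold change was −1.79 (SE 0.20, edgeR adjusted p = 0.0014), and no difference passed the threshold at 10, 20 or 60 min, where the log2 fold changes were −0.04, 0.14 and −0.43. ENSMUSG00000034317.14 had 171 and 174 CPM in Control 30 min and 47.4 and 57.7 CPM in CKO 30 min, against 96.4 to 193 CPM elsewhere. Its log2 fold change was −1.31 (SE 0.13, edgeR adjusted p = 0.0011), and values of −0.21, −0.37 and −0.34 at 10, 20 and 60 min had the same sign, past the threshold at 20 and 60 min. In both cases the CKO 30 min libraries were the lowest of the series. Each of these 2 was called lower under every alternative tried.

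The other EU times, which share no library with the 30 min comparison, showed how far the 30 min differences recurred. Of the 449 identifiers higher at 30 min, 318 (70.8%) had a positive log2 fold change at 10 min, 291 (64.8%) at 20 min and 398 (88.6%) at 60 min, where 48.5%, 49.0% and 50.02% of all 2135 did. Called higher were 204, 175 and 156 of them, and called lower 32, 64 and 5. Over the whole set, 380, 431 and 256 were called higher and 324, 385 and 227 lower, at call rates over all tested identifiers of 10.4%, 12.9% and 9.34%. Of all tested identifiers, 7%, 8.09% and 5.4% were called higher and 3.36%, 4.82% and 3.94% lower at these times.

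Of the 419 identifiers lower at 30 min, 268 (64.0%) were negative at 10 min, 289 (69.0%) at 20 min and 328 (78.3%) at 60 min, against 51.5%, 51.0% and 49.98% of the set. Called lower were 100, 114 and 114, and called higher 22, 35 and 9. At 10, 20 and 60 min, 45.4%, 38.98% and 34.7% of the 449 were called higher, against 17.8%, 20.2% and 11.99% of the set. Of the 419, 23.9%, 27.2% and 27.2% were called lower, against 15.2%, 18.03% and 10.6% of the set. At all 3 other times 57 of the 449 were called higher and 24 of the 419 lower, while 144 and 203 were called in that direction at none. The counts at all 3 times and at none were not computed for the set, so whether they differ from it was not tested. The median log2 fold changes of the higher identifiers were 0.31, 0.09 and 0.30 at 10, 20 and 60 min, and those of the lower −0.10, −0.05 and −0.19. Over the 2135 identifiers, log2 fold changes at 10, 20 and 60 min had Pearson correlations of 0.27, 0.30 and 0.51 with those at 30 min. Without the 4 identifiers over 8-fold at 30 min these were 0.37, 0.32 and 0.63. Rank correlations over the set were 0.31, 0.29 and 0.62. The nearest likeness was thus with 60 min, while the order of 10 and 20 min depended on the measure. The 2 CKO 60 min libraries differed from each other, with a replicate SD of 0.24 in the set, against 0.06 in Control 60 min. Whether the likeness rests on 1 of them was not tested.

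The 52 identifiers higher under all 4 scalings had a positive log2 fold change in 42, 41 and 46 cases at 10, 20 and 60 min. That is 80.8%, 78.8% and 88.5%, against 48.5%, 49.0% and 50.02% of the set. Of these 52, 36, 36 and 23 were called higher and 4, 6 and 2 lower at those times. The median log2 fold changes of the 52 were 0.80, 0.23 and 0.58.

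**Figure D5:**
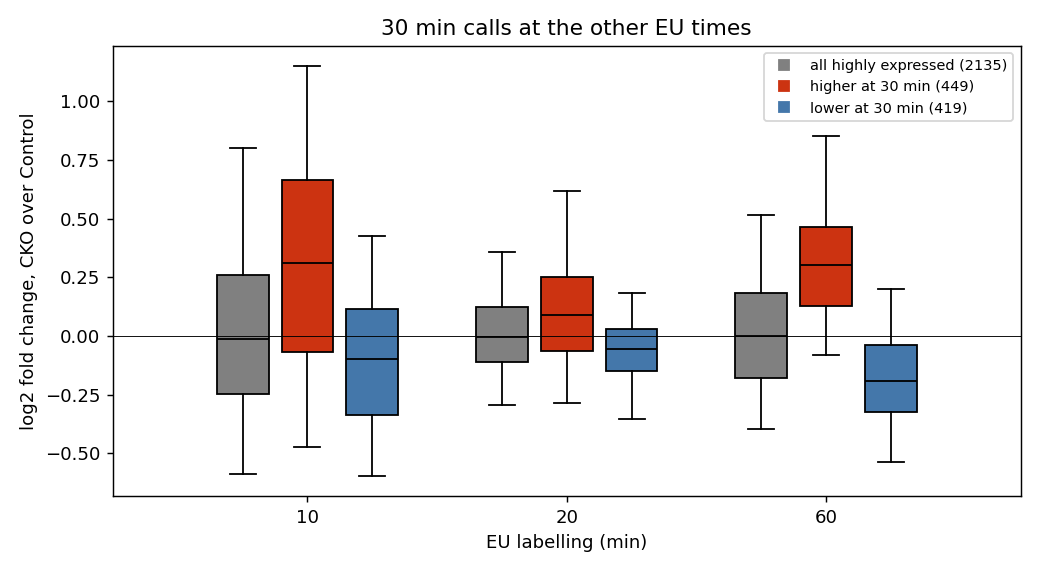
Log2 fold change of CKO over Control (y axis) at 10, 20 and 60 min of EU (x axis) for all 2135 highly expressed identifiers (grey), the 449 higher (red) and the 419 lower (blue) at 30 min. Boxes span the quartiles with the median as a line and whiskers reach the 5th and 95th percentiles; the red medians lie above 0 and the blue below 0 at each time, furthest apart at 60 min.

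Differences particular to 30 min were tested directly, by setting the CKO/Control difference at 30 min against the mean of those at 10, 20 and 60 min in 1 model of all 16 libraries. That model shares 1 spread per identifier among all groups, so its p-values may be too small for the CKO 30 min pair. Replicate SDs in the highly expressed set were 0.25 for CKO 30 min and 0.06 to 0.24 for the other groups. Of the 2135 highly expressed identifiers, 592 passed an edgeR adjusted p of 0.05 (27.7%, against 21.7% of all 27488 identifiers tested), 321 with a higher value at 30 min (15.0%, against 19.8%) and 271 with a lower one (12.7%, against 1.96%). The shares over all identifiers include low ones that can pass the filter through the CKO 30 min libraries alone. They are thus no like background for the 2 directions. Of the 449 higher identifiers, 219 were among the 321, and of the 419 lower ones 199 were among the 271. For the others of either list, a difference between 30 min and the other times did not pass the threshold, which does not show that they were equal. The count was 293 without Control 30 min replicate 1, 281 without replicate 2 and 1868 with TMM over all identifiers.

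The number of calls in the set changed with single libraries. Leaving out 1 Control library gave 307 (without replicate 1) or 281 (without replicate 2) calls in place of 868, and leaving out 1 CKO library gave 1372 (without replicate 1) or 1401 (without replicate 2). In such fits the lone library is assumed to vary like the remaining pair.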

How the data were processed

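Nascent RNA libraries of mouse embryonic stem cells were compared, 2 CKO and 2 Control at 30 min of EU. RNA was captured by click chemistry, 0.01 µl of ERCC RNA went in after capture, and a stranded total RNA kit was used for the libraries, per the labels' protocols. Both total RNA and nascent polyA RNA appear in the labels. The authors deposited raw read counts per identifier, not normalised, one table per library. CASAVA, Trimmomatic 0.38, HISAT2 2.1.0, HTSeq and the mm10 build are named, per the submitters' processing notes. The annotation release and strand setting: not given in the sources used here.

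CPM are mouse counts scaled to 1000000 per library. Tests used edgeR 4.0.16 (R 4.3.3), the robust quasi-likelihood fit, the filter on low counts by group and Benjamini-Hochberg adjustment over all identifiers tested, on the 4 libraries of the comparison alone. TMM factors came from all identifiers or from the 2135 highly expressed ones. Ratios of single libraries and thinned differences used log2(CPM + 1). Standard errors were derived from the F statistic. The code was tested on simulated counts. Replicates differed by more than sampling noise (chi-square per degree of freedom of 17.3 for CKO and 4.39 for Control).

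The 2 identifiers named in each direction had the largest log2 fold change in the set among those whose groups did not overlap. The rule's parts on symbols, gene lists and marker lists could not be applied. The set and the lists were chosen with earlier results of these data known. Alternatives were scaling (library totals, ERCC, size factors of DESeq2 1.42.0), DESeq2 itself, filters, all 16 libraries, a replicate block, other CPM limits and each library left out.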

Additional observations from a re-analysis of the deposited data

Results flagged for a closer look

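At 30 min the CKO/Control difference of 592 highly expressed identifiers departed from the mean of the other EU times in the model of all 16 libraries. The 4 named identifiers are among them. Those 4 were named for their differences at 30 min, which enter this contrast, so their passing was largely fixed by the choice. ENSMUSG00000029179.14 was 7.74 higher on the log2 scale at 30 min than over the other times (SE 0.12, edgeR adjusted p = 4.5e-25), and its sign was opposite at 10, 20 and 60 min. For ENSMUSG00000075014.1 the difference was 4.52 (SE 0.89, edgeR adjusted p = 0.0083). For ENSMUSG00000058186.13 it was −1.66 (SE 0.20, edgeR adjusted p = 3.5e-06), and for ENSMUSG00000034317.14 −0.98 (SE 0.13, edgeR adjusted p = 6.6e-06). These values rest on the 2 CKO 30 min libraries, which also carried the counts on Control-silent identifiers, and the part of that background in them was not tested.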

How the results depend on the processing

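Among the highly expressed identifiers, calls (868, with 449 higher and 419 lower) became 1783 (52 and 1731) with TMM over all identifiers, 1694 (53 and 1641) with DESeq2's size factors in edgeR, 1403 (100 and 1303) with library totals, 210 (8 and 202) with ERCC totals and 1824 (68 and 1756) with DESeq2. With limits of 50 or 200 CPM the counts were 1352 (701 and 651) of 4159 identifiers and 473 (246 and 227) of 922. Leaving out 1 library gave 281 to 1401 calls, 173 to 699 higher and 108 to 702 lower. Over all identifiers, ERCC totals gave 6886 calls, a filter of 10 CPM, which tests fewer identifiers, 4058, and single left-out libraries 4787 to 15972. The test of 30 min against the other times gave 1868 with TMM over all identifiers, 1132 with library totals, 2089 with ERCC and 281 to 672 without 1 library.

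The share on Control-silent identifiers was 3.00% for 0 counts in the Control 30 min libraries only, 2.26% with up to 1 count allowed in each Control library, 2.24% for 0 in the 6 other Control libraries, 2.504% after thinning and 1.63% to 1.67% without 1 CKO library. The correlation of ratios was 0.72 at a limit of 50 CPM, 0.92 at 200 CPM, 0.83 with the limit set in the 6 other Control libraries, 0.91 with the mean over the 4 libraries and 0.79 without the 4 identifiers over 8-fold, an alternative chosen after seeing the data. The cause of these movements was not tested beyond what each setting changes by construction.

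No shared effect of replicate number was seen. Deviations of same-numbered libraries had a correlation of −0.04 at 30 min and −0.01 to 0.10 at the other times. That does not show whether same-numbered libraries were prepared together. With the replicate block 887 highly expressed identifiers were called (454 higher, 433 lower), and 427 of the 449 and 394 of the 419 remained.

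The 4 named identifiers kept their direction in every setting, and ENSMUSG00000075014.1 alone lost its call, in the 2 fits without a Control library (adjusted p 6.9e-250 to 0.0610 over all settings). In a library of 5109162 counts a count of 0 allows a level of up to 0.587 CPM (3 counts, for counting error only).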
